A study of Danio rerio with 4 samples.

Results

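The comparison described here set the miRNAs of zebrafish larvae raised in 5 μg/L BDE47 against those of larvae raised in the DMSO vehicle alone. The exposed larvae were wild-type Tuebingen zebrafish given 5 μg/L BDE47 in DMSO. Their control larvae, the DMSO vehicle group, were of the same strain and received the same solvent without BDE47. A blank control group, labelled wild type and without BDE47, and a 500 μg/L BDE47 group in DMSO complete the series, and whether the blank control contained DMSO is not stated in the sources used here. All larvae were taken whole at 6 dpf, exposure began at the gastrula stage, and the RNA of each library came from a pool of larvae, so 1 library stands for each of the 4 groups. No difference between groups therefore had a replicate check within the sequencing data. No p-value was computed between conditions, and each value describes the libraries named. The paper also measured several selected miRNAs by RT-PCR on replicates, and describes their changes as generally similar to those by sequencing. Those RT-PCR values were not used here. The table holds 245 zebrafish miRNA entries, and the 234 whose normalized count averaged 10 or more over the 4 libraries were compared. The other 11 entries held at most 11 reads in any library and enter no count below.

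miRNAs are short RNAs that guide Argonaute proteins to messenger RNAs and lower the output of these messages. Each is cut from a hairpin precursor, whose arms are called 5p and 3p, and several hairpins often lie together in 1 transcript. Many vertebrate miRNAs are strongly enriched in 1 cell lineage, such as miR-144 and miR-451 in red blood cells, miR-142 in white blood cells, miR-9 and miR-124 in the nervous system, and miR-1, miR-133 and miR-206 in muscle, so that a whole-larva profile is a sum over tissues. BDE47 is a brominated flame retardant that accumulates in fatty tissue and is studied for its effects on the development of nerves, senses and bone.

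At 5 μg/L BDE47 the miRNA profile stayed close to that of the DMSO vehicle, and the departures beyond 2-fold were all downward. Of 234 miRNAs, 7 were more than 2-fold lower at 5 μg/L than in the vehicle (2.99% of those compared) and 0 were more than 2-fold higher (0%). These 7 were miR-144, miR-146a, miR-301b, miR-219, miR-190a, miR-142b-5p and miR-101b. Beyond 1.5-fold, 30 miRNAs were lower (12.8%) and 6 were higher (2.56%). The log2 ratios, computed after adding 1 to each normalized count, ran from -1.63 for miR-144 to 0.77 for miR-129-3p. Their median was 0.02, the quartiles were -0.28 and 0.17, and 82 of the 234 were within 1.1-fold of the vehicle. The lower tail was the longer one, with a 5th percentile of -0.86 and a 95th percentile of 0.47. The blank control over the vehicle, without BDE47 in either library, had 3 miRNAs lower and 0 higher beyond 2-fold. Beyond 1.5-fold it had 26 lower and 5 higher, and its 5th and 95th percentiles were -0.74 and 0.37. Both comparisons share the vehicle library.

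**Figure D1:**
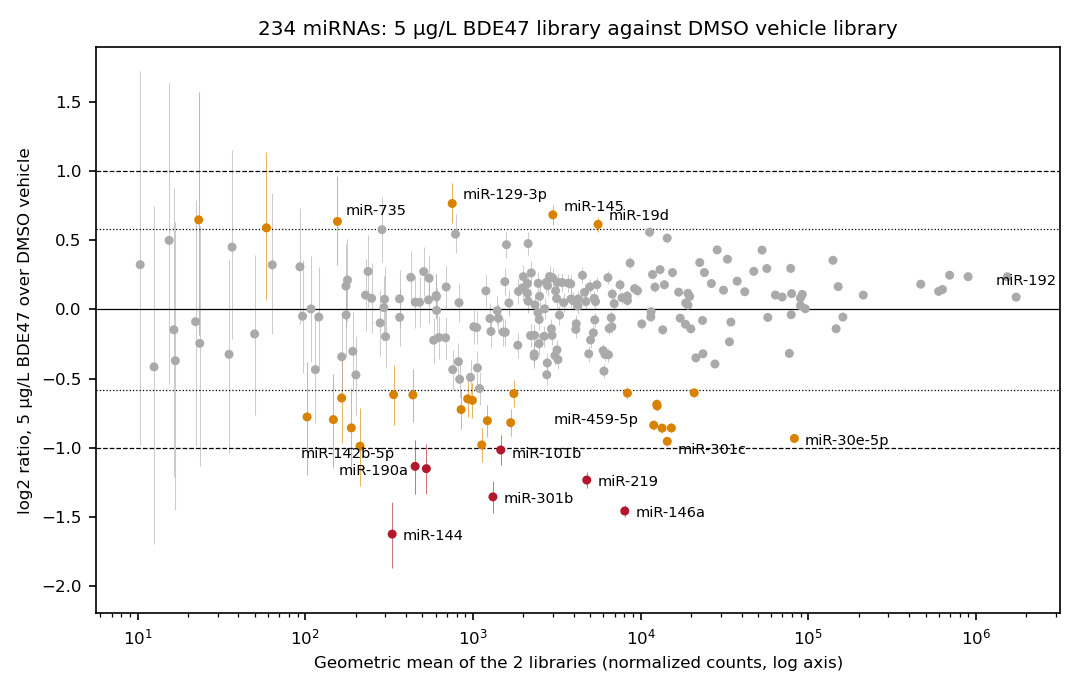
The log2 ratio of the 5 μg/L BDE47 library to the DMSO vehicle library is plotted against the level of each of 234 miRNAs on a log axis, with vertical lines for 95% counting intervals. Dashed lines mark 2-fold and dotted lines 1.5-fold. The 7 red points lie below the lower dashed line, no point lies above the upper one, and the orange points are the other 23 miRNAs lower and 6 higher by more than 1.5-fold.

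The listed miRNAs held 10357704 reads at 5 μg/L and 10150872 reads in the vehicle, so the counting error was small for most of them. The exact 95% interval of the ratio, which covers counting error alone, left out equality for 184 of the 234 miRNAs (78.6%), 92 lower and 92 higher. The same reading between the blank control and the vehicle, neither of which held BDE47, gave 167 miRNAs. At this depth the interval thus separates libraries that received no BDE47 as well. The median absolute log2 ratio was 0.19 for 5 μg/L over the vehicle, 0.14 for 5 μg/L over the blank control and 0.19 for the blank control over the vehicle. These pairs share libraries and are given side by side only. With the blank control as the control library, 0 miRNAs were beyond 2-fold at 5 μg/L in either direction, while 2 were lower and 2 higher beyond 1.5-fold. The level at 5 μg/L was below both controls for 80 miRNAs, above both for 79 and between them or equal to one for 75. It was more than 1.5-fold below both for 1, miR-146a, and more than 1.5-fold above both for 0. Scaling each library to its total of listed reads lowered every log2 ratio by about the same amount (-0.12), and then 35 miRNAs were lower and 1 was higher beyond 1.5-fold. Of all 234, 113 were lower and 121 higher at 5 μg/L as deposited, and 158 lower and 76 higher with total scaling.

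The size of the differences varied with abundance. Among the 15 miRNAs with a mean of 10 to 100 normalized counts, the median absolute log2 ratio of 5 μg/L over the vehicle was 0.32, but the median half-width of the counting interval was 0.87. Among the 66 miRNAs with a mean of 10000 or more, the median absolute log2 ratio was 0.18 and the half-width 0.02. The 7 miRNAs beyond 2-fold came from the middle of the range, 3 from means of 100 to 1000 and 4 from means of 1000 to 10000.

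miR-144 was the lowest of all 234 miRNAs. It is made from the same precursor transcript as miR-451 in red blood cells, where both are abundant. It had 188 normalized counts at 5 μg/L, against 581 in the DMSO vehicle and 256 in the blank control, and the 500 μg/L library held 180.5. The vehicle library was thus the high one, and the remaining libraries lay between 180.5 and 256. The log2 ratio to the vehicle was -1.63 (95% counting interval -1.87 to -1.40), from 192 reads at 5 μg/L and 634 in the vehicle. Relative to the blank control, its log2 ratio stood at -0.45. Its partner miR-451 had 1388 normalized counts at 5 μg/L, against 1451 in the vehicle and 1660 in the blank control, a log2 ratio of -0.06 to the vehicle whose interval (-0.17 to 0.04) included 0. The 2 red blood cell miRNAs thus differed from the vehicle by very different amounts. In a profile of whole larvae, fewer cells of a type and less RNA in each such cell cannot be told apart.

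Among miRNAs of immune cells, the miR-146 and miR-142 entries were lower at 5 μg/L, while miR-150 and miR-223 were higher. miR-146a, which in mammals is induced by NF-kB signalling and damps it by repressing TRAF6 and IRAK1, had 4854 normalized counts at 5 μg/L, against 13344 in the vehicle and 7689 in the blank control. The 500 μg/L library held 12267, close to the vehicle. The 5 μg/L library was therefore the lowest of the 4, with a log2 ratio of -1.46 to the vehicle (-1.51 to -1.41) and of -0.66 to the blank control. Its paralog miR-146b had 803 at 5 μg/L, 1585 in the vehicle and 917 in the blank control, a log2 ratio of -0.98 to the vehicle (-1.10 to -0.86). The 500 μg/L library held 1401 of it, so both miR-146 entries were near the vehicle at 500 μg/L and well below it at 5 μg/L. miR-155, which is induced in activated immune cells, had 98.7 at 5 μg/L, 134 in the vehicle and 135 in the blank control, with a log2 ratio of -0.44 (-0.82 to -0.06).

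miR-142 is made in nearly all blood cell lineages and from an early stage of their development. miR-142b-5p had 305 normalized counts at 5 μg/L, against 671 in the vehicle and 336 in the blank control, with 188 in the 500 μg/L library. Its log2 ratio was -1.14 to the vehicle (-1.33 to -0.94) and -0.14 to the blank control. For miR-142b-5p at the low concentration, the paper reports that significance by RT-PCR differed from that by sequencing. The arms of miR-142a were lower by like amounts, with log2 ratios of -0.81 (-0.92 to -0.69) for miR-142a-5p and -0.80 (-1.14 to -0.47) for miR-142a-3p. miR-150, a miRNA of mature lymphocytes, had 951 at 5 μg/L, against 652 in the vehicle and 808 in the blank control, a log2 ratio of 0.55 (0.41 to 0.69). miR-223, a miRNA of granulocytes and macrophages, had 351 at 5 μg/L, against 235 in the vehicle and 252 in the blank control, a log2 ratio of 0.58 (0.34 to 0.82). For both, the 5 μg/L library lay above both controls. Together, 3 of the 5 white blood cell entries were lower beyond 1.5-fold, beside 12.8% of all miRNAs. All 3 were miR-142 entries, including both arms of the miR-142a hairpin. Over the blank control, miR-142a-5p was at -0.19 (-0.32 to -0.06) and miR-142a-3p at -0.04 (-0.44 to 0.35). The log2 ratios of the 5 entries to the vehicle had an SD of 0.82.

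The myelin-related miR-219 was the most abundant of the 7 after miR-146a. It promotes the maturation of oligodendrocytes, the cells that form myelin in the central nervous system. It had 3111 normalized counts at 5 μg/L, against 7324 in the vehicle and 3408 in the blank control, and 2142 in the 500 μg/L library. The vehicle stood highest, and the remaining libraries ran from 2142 to 3408. The log2 ratio of 5 μg/L was -1.23 to the vehicle (-1.29 to -1.18) and -0.13 to the blank control (-0.20 to -0.06). miR-338, another miRNA of the oligodendrocyte lineage, had 2489 at 5 μg/L, 2847 in the vehicle and 2962 in the blank control, with a log2 ratio of -0.19 (-0.27 to -0.12). The 2 miRNAs of this lineage thus differed from the vehicle by very different amounts.

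The remaining members beyond 2-fold were miR-301b, miR-190a and miR-101b. miR-301b, of the miR-130 family, had 822.5 normalized counts at 5 μg/L, against 2108 in the vehicle and 1162 in the blank control, with 635 in the 500 μg/L library. Its log2 ratio was -1.36 to the vehicle (-1.47 to -1.24) and -0.50 to the blank control, so the 5 μg/L library lay below both controls. miR-190a, which in mammals lies in an intron of the talin-2 gene, had 354 at 5 μg/L, against 787 in the vehicle and 344 in the blank control, and 254 in the 500 μg/L library. Here the 5 μg/L and blank libraries differed by less than counting error, with a log2 ratio of 0.04 between them (-0.18 to 0.26) beside -1.15 to the vehicle (-1.34 to -0.98). miR-101b, whose mammalian counterpart represses the histone methyltransferase EZH2, had 1030 at 5 μg/L, against 2085 in the vehicle and 1443 in the blank control, and 1056 in the 500 μg/L library. It was the member closest to the threshold, with a log2 ratio of -1.02 (-1.12 to -0.91). Just outside stood miR-18b-5p at -0.99, miR-146b at -0.98 and miR-301c at -0.95.

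**Figure D2:**
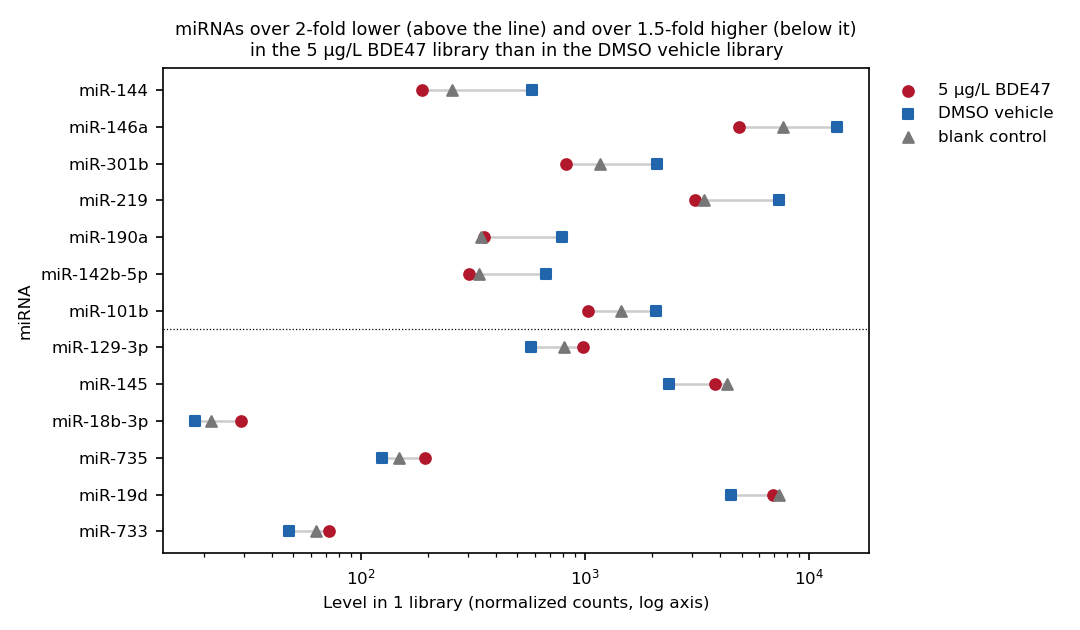
Levels of 13 miRNAs in normalized counts on a log axis, with 1 point for each library. In the upper 7, more than 2-fold lower at 5 μg/L than in the DMSO vehicle, the vehicle (squares) is the highest of the 3 libraries, and the blank control (triangles) lies between it and 5 μg/L (circles) except for miR-190a. In the lower 6, more than 1.5-fold higher at 5 μg/L, the vehicle is the lowest of the 3.

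Over the 30 miRNAs below the vehicle by more than 1.5-fold, the median log2 ratio of 5 μg/L over the vehicle was -0.83. For the same 30, the blank control over the vehicle had a median of -0.64 (from -1.19 for miR-190a to -0.14 for miR-2184), and 5 μg/L over the blank control one of -0.19 (from -0.66 for miR-146a to 0.17 for miR-34b). These comparisons share libraries, and the 30 were picked with the vehicle library, which favours miRNAs that are high there. With 1 vehicle library, its own peculiarities and an effect of BDE47 cannot be told apart.

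The largest difference in reads among the lower miRNAs was that of miR-30e-5p, a widely expressed miRNA. It had 59753 normalized counts at 5 μg/L, against 114119 in the vehicle and 76063 in the blank control, a log2 ratio of -0.93 (-0.95 to -0.92). Its share of the listed reads was 0.591% at 5 μg/L and 1.23% in the vehicle, and its rank by abundance 25 at 5 μg/L against 13 in the vehicle. Other abundant members of the lower group were miR-301c, miR-301a and miR-153a, a neuronal miRNA. Their log2 ratios to the vehicle were -0.95, -0.60 and -0.86, and those to the blank control -0.36, -0.26 and -0.14. miR-190b had 8956 at 5 μg/L, 16005 in the vehicle and 9411 in the blank control, a log2 ratio of -0.84 to the vehicle and of -0.07 to the blank control. In both miR-190 paralogs, then, the vehicle stood far above the 5 μg/L and blank libraries, which were close to each other. The fish miRNA miR-2184 was the member for which the controls were closest, with 6764 at 5 μg/L, 10292 in the vehicle and 9365 in the blank control. Its log2 ratio of 5 μg/L was -0.61 to the vehicle and -0.47 to the blank control.

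The 6 miRNAs more than 1.5-fold higher at 5 μg/L were miR-129-3p, miR-145, miR-18b-3p, miR-735, miR-19d and miR-733. miR-129-3p, the minor arm of a neuronal hairpin, had 982 normalized counts at 5 μg/L, against 576 in the vehicle and 808 in the blank control, with 1248 in the 500 μg/L library. Its log2 ratio of 0.77 (0.62 to 0.91) was the highest of the 234, and 5 μg/L lay above both controls. miR-145, which drives the contractile state of smooth muscle, had 3799 at 5 μg/L, against 2362 in the vehicle and 4322 in the blank control, a log2 ratio of 0.69 (0.61 to 0.76) to the vehicle and -0.19 to the blank control. miR-19d had 6899 at 5 μg/L, 4501 in the vehicle and 7351 in the blank control, a log2 ratio of 0.62 to the vehicle and -0.09 to the blank control. For miR-145 and miR-19d, then, 5 μg/L stood above one control and below the other.

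miR-735 had 194 normalized counts at 5 μg/L, against 125 in the vehicle and 148 in the blank control, with a log2 ratio of 0.64 (0.32 to 0.97) to the vehicle and 0.39 to the blank control. The 5 μg/L library lay above both controls and far below the 500 μg/L library, which held 1202. The RefSeq annotation lists miR-735 as a synonym of rny2. miR-733 and miR-18b-3p were counted loosely, with 72.3 and 29.3 normalized counts at 5 μg/L and 47.7 and 18.3 in the vehicle. The interval of miR-18b-3p (-0.19 to 1.57) included 0, so its difference was not detectable at this depth.

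Besides miR-223 and miR-150, the highest miRNAs below 1.5-fold with at least 100 normalized counts were miR-214, miR-19b-3p, miR-19c and miR-132-3p. miR-214, a miRNA of mesenchyme and developing skeleton, had 13728 at 5 μg/L, against 9313 in the vehicle and 15126 in the blank control, a log2 ratio of 0.56 to the vehicle and -0.14 to the blank control. The log2 ratios to the vehicle were 0.52 for miR-19b-3p, 0.48 for miR-19c and 0.47 for miR-132-3p, a miRNA induced by neuronal activity in mammals. Among these, miR-132-3p alone was above the blank control at 5 μg/L, by a log2 ratio of 0.26, while miR-19b-3p (-0.29) and miR-19c (-0.07) were below it.

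miRNAs were also grouped by the tissue they are known for, in 19 lists of 2 to 8 entries. Entries of blood, vessel, muscle, gut, brain, sense organ and skin lists were all above the minimum level, as the whole-larva label implies. In 7 of these the median log2 ratio was below -0.1, namely inflammation, red blood cell, white blood cell, myelin-related, neuronal, endocrine and exocrine pancreas. The neurogenic (-0.09) and blood vessel (-0.08) lists just missed this line. Total scaling put them and the skin list below it too, at -0.21, -0.20 and -0.102. The lists were chosen with earlier results of these data known, so their medians are descriptions beside the median of 0.02 over all miRNAs. The lists of blood cells and myelin had the lowest medians, from -0.98 for inflammation (3 entries) to -0.71 for the myelin-related list (2 entries). For 5 μg/L over the blank control, the medians were -0.45 for inflammation and -0.35 for red blood cells. They were -0.19 for the myelin-related list and -0.04 for white blood cells. Each was smaller in size than the median over the vehicle, and the cause was not tested. Entries of the same list also lay far apart relative to the vehicle. They ran from -1.63 to -0.06 for red blood cells, -1.14 to 0.58 for white blood cells and -1.23 to -0.19 for the myelin-related list.

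**Figure D3:**
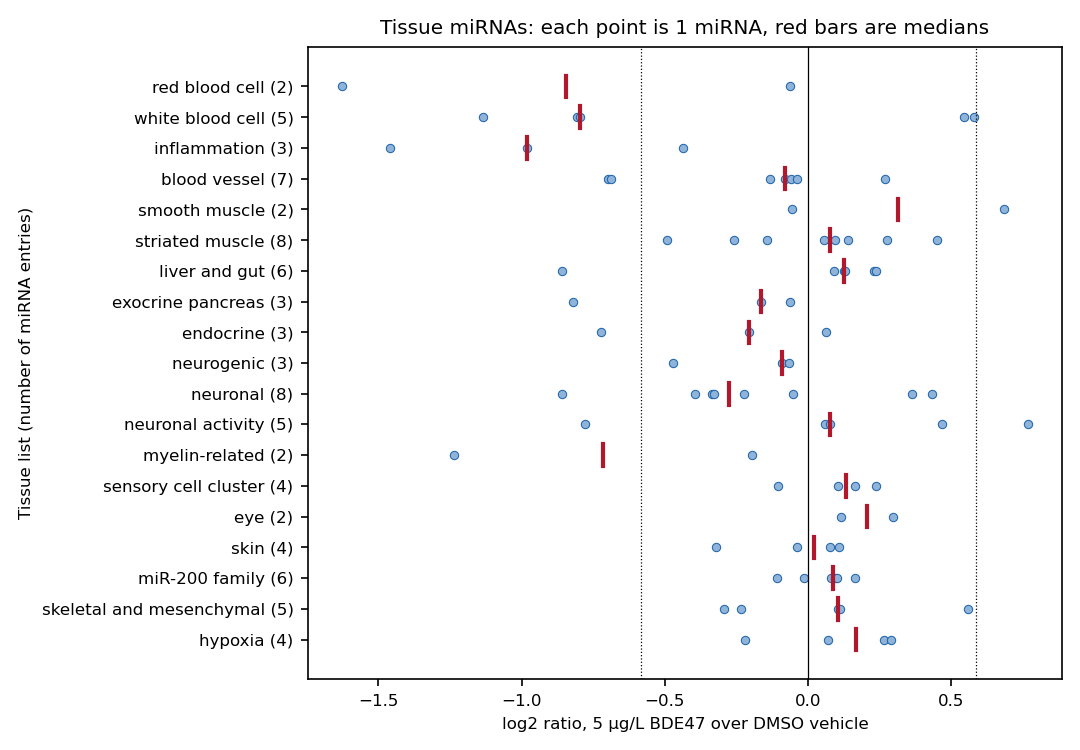
Each point is 1 miRNA entry of a tissue list, placed by its log2 ratio of 5 μg/L BDE47 over the DMSO vehicle, and red bars are list medians. Dotted lines mark 1.5-fold, and entries of the same list can lie far apart. The red blood cell, white blood cell, inflammation and myelin-related lists have medians from -0.98 to -0.71 (relative to the blank library, from -0.45 to -0.04), and all other tissue lists lie between -0.28 and 0.32, where total scaling turns the medians of striated muscle, neuronal activity, skin, the miR-200 family and the skeletal list below 0.

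In the nervous system, the entries went both ways. Of the 8 neuronal entries (miR-128, miR-137, miR-138, miR-153 and miR-218), 6 were lower and 2 higher, with a median log2 ratio of -0.28 to the vehicle and -0.11 to the blank control. Of these 8, 1 was lower beyond 1.5-fold, a share near the 12.8% of all miRNAs. miR-153a was at -0.86, miR-153c at -0.39 and both miR-218 entries at -0.33. miR-128, one of the most abundant miRNAs of neurons, had 33210 normalized counts at 5 μg/L, against 24630 in the vehicle and 17579 in the blank control, and its log2 ratio of 0.92 to the blank control was the highest of any miRNA there. miR-138 had 37382 at 5 μg/L, 29048 in the vehicle and 37058 in the blank control. So miR-128 was highest at 5 μg/L among these libraries, while miR-138 was at the level of the blank control. Of the neurogenic miRNAs, miR-124 had 2340 at 5 μg/L, 3248 in the vehicle and 1968 in the blank control, with a log2 ratio of -0.47 to the vehicle, and the arms of miR-9 were at -0.09 and -0.07. The neuronal activity list (miR-129, miR-132 and miR-212) had a median of 0.08, which total scaling turned to -0.05, and ran from -0.78 for miR-132-5p to 0.77 for miR-129-3p.

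The hairpins miR-96, miR-182 and miR-183 form 1 cluster that is expressed in hair cells and photoreceptors. Their 4 entries had log2 ratios from -0.10 for miR-96 to 0.24 for miR-182-5p. The median of 0.13 became 0.01 with total scaling, which turned miR-183 to -0.02. miR-182-5p was the third most abundant miRNA, with 974084 normalized counts at 5 μg/L, 826354 in the vehicle and 878148 in the blank control, and the 5 μg/L library was above both controls. In the eye list, miR-204 (retinal pigment epithelium and lens) had 62699 at 5 μg/L, 51054 in the vehicle and 56241 in the blank control. miR-184, of lens and cornea, had a log2 ratio of 0.11, which total scaling turned below 0.

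In striated muscle, skin and the skeletal list, 0 entries were beyond 1.5-fold, beside 12.8% lower and 2.56% higher among all miRNAs. Of all 36 lists, 15 had no such entry, so this is not particular to these tissues. The 8 striated muscle entries ran from -0.49 for miR-1 to 0.45 for miR-133b-5p, with a median of 0.08 that total scaling turned to -0.05. miR-1, expressed in heart and skeletal muscle, had 816 normalized counts at 5 μg/L, against 1147 in the vehicle and 854 in the blank control. The more abundant miR-133a-3p, transcribed together with miR-1 in vertebrates, had 32769 at 5 μg/L, 29747 in the vehicle and 28836 in the blank control. These partners thus went opposite ways, with log2 ratios of -0.49 and 0.14. miR-206, of skeletal muscle, was at 0.10 to the vehicle and -0.41 to the blank control. In skin, miR-203a was at -0.32 and miR-205, of basal keratinocytes, at 0.11, and the 4 skin entries had a median of 0.02 (-0.10 with total scaling). The 6 entries of the miR-200 family of epithelia had an SD of 0.10 around a median of 0.09, which total scaling turned to -0.03. In the skeletal and mesenchymal list, the cartilage miRNA miR-140 had a log2 ratio of -0.29 for the 5p arm and 0.10 for the 3p arm.

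Digestive organs held the most abundant miRNA and some of the wider gaps. miR-192, of liver and gut, had 1789780 normalized counts at 5 μg/L, against 1682190 in the vehicle and 1510010 in the blank control, a log2 ratio of 0.09 that total scaling turned to -0.03. The 500 μg/L library held 1186370, so as deposited 5 μg/L was highest of the 4 and 500 μg/L lowest. With total scaling the vehicle stood above 5 μg/L. miR-122, the main miRNA of hepatocytes, was at 0.12 to the vehicle and -0.19 to the blank control. miR-459-5p, a fish miRNA of the intestine, had 9970 at 5 μg/L, against 18088 in the vehicle and 11933 in the blank control, a log2 ratio of -0.86 (-0.89 to -0.82). Of the 6 liver and gut entries, it was the 1 that was lower, joined by miR-192 with total scaling. In the exocrine pancreas, miR-216a had 1264 at 5 μg/L, 2231 in the vehicle and 1474 in the blank control, a log2 ratio of -0.82, while miR-216b and miR-217 were at -0.06 and -0.17. Of the endocrine list, miR-7a was at -0.72, miR-7b at -0.21 and the islet miRNA miR-375 at 0.06.

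Vessels and the hypoxia list completed the tissues. miR-126, of endothelium, was split by arm, with log2 ratios of -0.69 and -0.70 for miR-126a-5p and miR-126b-5p and of -0.06 and -0.13 for the 3p arms. The 5p entries of miR-126a and miR-126b differed by at most 1.18% in any library, and how reads shared by near-identical miRNAs were counted is not given in the sources used here. miR-221 was at -0.08 and miR-222a at 0.27. In smooth muscle, miR-143 had 157706 normalized counts at 5 μg/L, against 163838 in the vehicle and 150906 in the blank control, a log2 ratio of -0.06 beside 0.69 for miR-145. Of the hypoxia list, miR-462 and miR-731, which in fish are induced by low oxygen, were at 0.29 and 0.26 to the vehicle and at 0.46 and 0.58 to the blank control. Both stood above both controls, while miR-210-3p, the hypoxia miRNA of mammals, was at -0.22 to the vehicle and -0.14 to the blank control.

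Both arms of a hairpin were listed for 32 hairpins, and they often differed in their ratio to the vehicle. Both arms were lower at 5 μg/L in 8 hairpins and both higher in 7, while in 17 the arms went opposite ways. With total scaling these counts were 15, 3 and 14. In the opposite group of 17, at least 1 arm's interval included equality for miR-1788, miR-2185, miR-133b, miR-210, miR-27c, miR-10a, miR-17a, miR-19b and miR-18b. In the rest of the 17, the intervals of both arms left out equality. The median absolute difference between the arms was 0.32 on the log2 scale, 11 hairpins had arms more than 1.5-fold apart and 5 more than 2-fold. In 8 of the 11 the 5p arm had the lower ratio. The scaling of a library cancels in the difference between its arms, so these gaps do not depend on it. Among the 11, the counting interval of the minor arm included equality for miR-1788, miR-2185, miR-133b, miR-19b and miR-18b. Their gaps rest on few reads of that arm, and they include every hairpin of the 11 whose 5p arm had the higher ratio.

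The share taken by the 5p arm makes the gaps plain. In miR-30e it was 75.0% at 5 μg/L (exact binomial interval 74.7 to 75.3%), against 86.1% in the vehicle (85.9 to 86.3%) and 79.6% in the blank control. In miR-459 it was 75.5% at 5 μg/L (74.8 to 76.2%), against 86.8% in the vehicle (86.3 to 87.2%) and 83.9% in the blank control. For both, the 5 μg/L library had a lower 5p share than either control, and the 500 μg/L library a lower one still, at 69.9% for miR-30e and 72.3% for miR-459. In miR-132 the 5p share was 4.02% at 5 μg/L (3.20 to 4.98%), against 9.09% in the vehicle (7.73 to 10.6%) and 5.16% in the blank control. In miR-126a it was 60.1% at 5 μg/L, 69.9% in the vehicle and 64.4% in the blank control. The share of 5p in miR-18b, 83.7% at 5 μg/L (77.5 to 88.7%) and 94.2% in the vehicle (91.2 to 96.4%), rests on few reads of the 3p arm. In all 32 hairpins the arm with more reads was the same in both libraries.

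**Figure D4:**
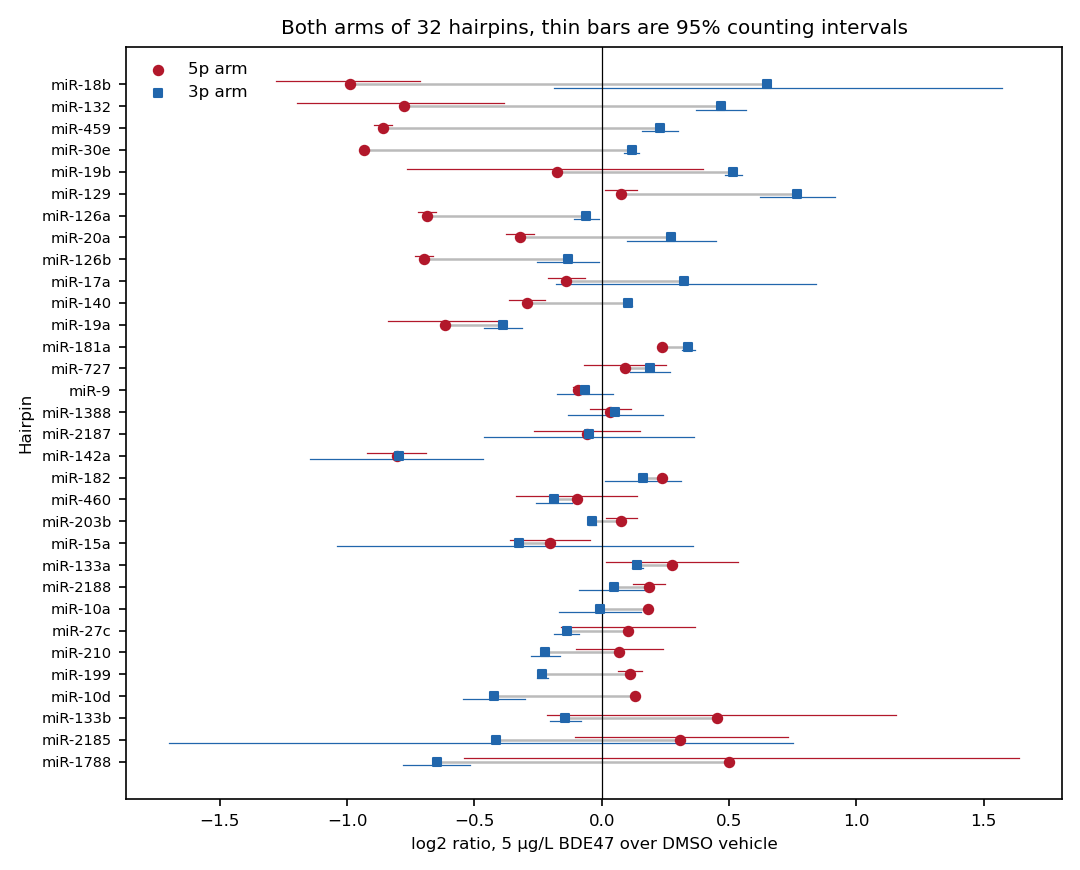
For 32 hairpins with both arms listed, the log2 ratio of 5 μg/L BDE47 over the DMSO vehicle is shown for the 5p arm (circles) and the 3p arm (squares), with thin bars for 95% counting intervals. Hairpins are ordered by the difference of their arms, with miR-18b, miR-132, miR-459 and miR-30e at the top, where the 5p arm is more than 2-fold below the 3p arm.

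Entries that share a number in their names are here called a family. A family can therefore hold the arms of a single hairpin as well as paralogs. Among the 58 families with 2 or more entries, 18 had every entry lower at 5 μg/L than in the vehicle, 16 had every entry higher and 24 were mixed. With total scaling, 26 were lower throughout and 4 higher. The median distance between the lowest and highest entry of a family was 0.34 on the log2 scale. The families that were lower throughout included miR-301 (from -1.36 to -0.60), miR-146 (-1.46 and -0.98), miR-190 (-1.15 and -0.84), miR-142 (-1.14 to -0.80), miR-101 (-1.02 and -0.35), miR-34 (-0.64 to -0.05) and the Hox-cluster miR-196 (-0.66 to -0.19). In these, all entries stood on the same side of the vehicle, but seldom by the same amount. The interval of miR-34c (-0.42 to 0.31) included 0, and miR-34b stood at 0.17 to the blank control (-0.20 to 0.55). Relative to the blank control, the family medians were -0.34 for miR-101, -0.12 for miR-34 and -0.02 for miR-190. For the 4 miR-196 entries the blank control was the lowest of the 3 libraries, with log2 ratios of 5 μg/L over it from 0.12 to 0.30.

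The families that were higher throughout had smaller values. The 4 entries of miR-181, which is abundant in brain and lymphocytes, ran from 0.05 for miR-181c, which total scaling turned below 0, to 0.34 for miR-181a-3p. The 3 entries of miR-125 ran from 0.19 to 0.34 and the 3 of miR-130 from 0.15 to 0.27, above 0 with total scaling too. miR-92a had 158680 normalized counts at 5 μg/L, against 123990 in the vehicle and 119846 in the blank control, a log2 ratio of 0.36 to the vehicle and 0.40 to the blank control. The miR-130 and miR-301 entries, which share a seed, went opposite ways, since miR-301a, miR-301b and miR-301c were at -0.60, -1.36 and -0.95. Of the 10 let-7 entries, 6 were lower and 4 higher (8 and 2 with total scaling), from -0.51 for let-7j to 0.23 for let-7b. The median of let-7 was -0.10 to the vehicle and 0.20 to the blank control, so the family stood between the controls.

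Of the 234 miRNAs, 231 matched a gene in the RefSeq annotation of the GRCz12tu assembly, which served for names and gene neighbourhoods alone. Neighbours within 10 kb of each other gave 19 clusters of 55 entries from hairpins with a single gene. The entries of a cluster lay a median of 0.35 apart on the log2 scale, in 10 clusters they were within 1.5-fold of each other, and in 4 more than 2-fold apart. The tightest were miR-462 and miR-731 (0.29 and 0.26), miR-192 and miR-194a (0.09 and 0.13), and miR-15b and miR-457a (0.13 and 0.20). The widest were miR-301b with miR-454b and miR-130b (-1.36, -0.06 and 0.27), miR-144 with miR-451 (-1.63 and -0.06), miR-30e with miR-30c, and the cluster of miR-18a, miR-19a, miR-20a and miR-19b. In that last cluster, miR-19a-5p was at -0.62, miR-18a at -0.44, miR-19a-3p at -0.39, miR-20a-5p at -0.32 and miR-19b-3p at 0.52. In related clusters, miR-19c was at 0.48 beside -0.25 for miR-18c, and miR-19d at 0.62 beside 0.20 for miR-25. miR-301b, miR-144 and miR-30e-5p were thus the single low entries of their clusters.

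**Figure D5:**
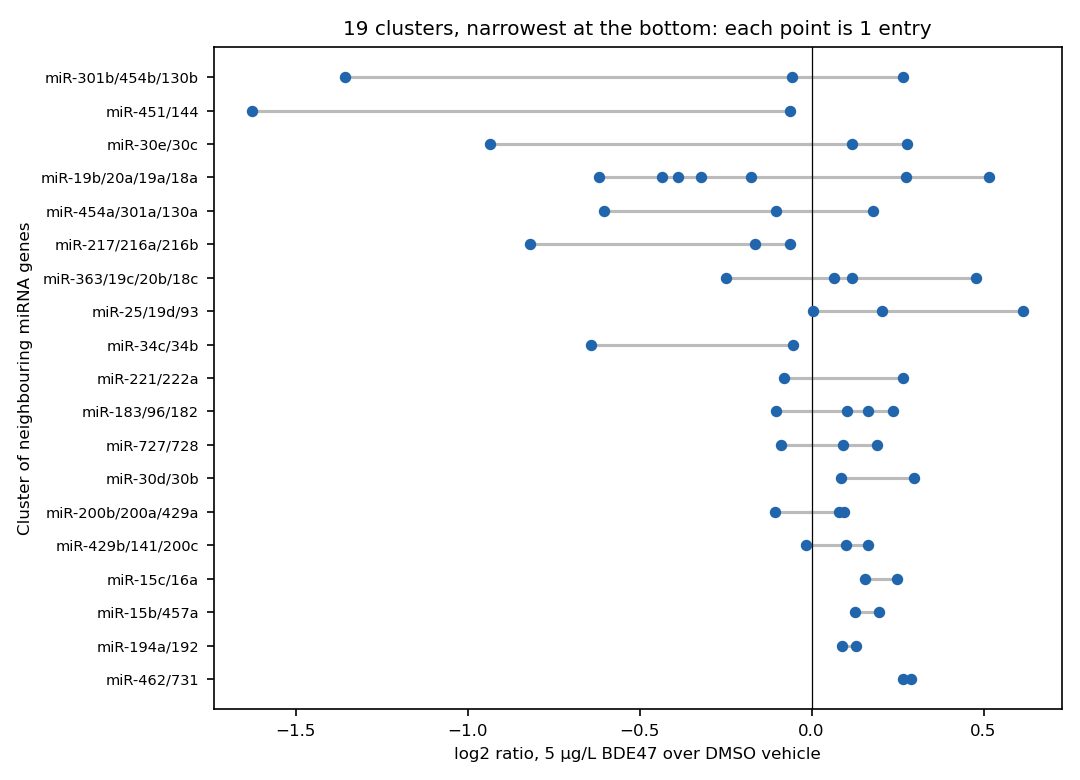
The log2 ratio of 5 μg/L BDE47 over the DMSO vehicle for the 55 entries of 19 clusters of neighbouring miRNA genes, ordered by their range. The clusters at the bottom, such as miR-462 with miR-731, are tight, and in the 4 at the top the entries lie more than 2-fold apart.

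In terms of the whole pool of reads, 4.07% of the listed reads were placed on other miRNAs at 5 μg/L than in the vehicle, which is the sum of all gains in share. The same figure was 3.74% for 5 μg/L and the blank control, and 5.29% for the blank control and the vehicle. By Spearman correlation of levels over the miRNAs compared, the order of the pairs differed. It was 0.9916 for 5 μg/L and the vehicle, 0.9926 for the blank control and the vehicle, and 0.9967 for 5 μg/L and the blank control. The 10 most abundant miRNAs at 5 μg/L took 74.3% of the listed reads, and the 10 most abundant of the vehicle 72.0%. The first 8 places were the same in both libraries, in the order miR-192, miR-181a-5p, miR-182-5p, miR-10b, miR-10c, miR-10d-5p, miR-10a-5p and miR-183. miR-181b and miR-92a, at 9 and 10 at 5 μg/L, were at 11 and 12 in the vehicle.

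The largest gains in share were those of miR-181a-5p, with 16.5% of reads at 5 μg/L, 15.2% in the vehicle and 17.4% in the blank control, and of miR-182-5p, with 9.63%, 8.88% and 9.24% in the same libraries. miR-10b, a miRNA of the Hox clusters, followed with 7.50% at 5 μg/L and 6.87% in the vehicle, then miR-92a (1.57% and 1.33%) and miR-10a-5p (4.93% and 4.72%). By share, 5 μg/L lay between the controls for miR-181a-5p and above both for miR-182-5p. By normalized count, miR-181a-5p at 5 μg/L was above both controls, with log2 ratios of 0.24 to the vehicle and 0.012 to the blank control. The largest losses were those of miR-30e-5p, miR-192 (17.7% at 5 μg/L and 18.1% in the vehicle, although its normalized count was higher at 5 μg/L), miR-26b (1.38% and 1.65%), miR-21 (0.682% and 0.925%) and miR-143 (1.56% and 1.76%). miR-21, which is induced in injured and inflamed tissue, had 69026 normalized counts at 5 μg/L, against 86059 in the vehicle and 93197 in the blank control. The 500 μg/L library held 136432, so miR-21 was lowest of the 4 libraries at 5 μg/L and highest at 500 μg/L. Between the BDE47 libraries, 2 miRNAs were more than 2-fold lower and 2 more than 2-fold higher at 500 μg/L than at 5 μg/L.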

How the data were processed

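Small RNA libraries were made from total RNA of pooled whole larvae and sequenced single-end. Reads of low quality, short reads and adaptors were removed by the authors, and clean reads were mapped to miRBase's zebrafish entries. Each deposited value is a normalized signal, the read count of each miRNA divided by a size factor of its library. How reads that fit several miRNAs were counted is not given in the sources used here. All values in a library were whole multiples of 1 step (tolerance 0.001), from which reads were recovered for the intervals. Listed reads numbered 10357704 at 5 μg/L, 10150872 in the vehicle, 8858169 in the blank control and 9295259 at 500 μg/L.

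Entries averaging 10 or more normalized counts were kept, and log2 ratios were taken after adding a pseudocount of 1. Exact Clopper-Pearson 95% intervals were computed on the ratio of reads without the pseudocount. These reflect counting error alone, and PCR copies of 1 molecule are not independent of each other. Of the miRNAs, every one beyond 2-fold was named, together with the 10 lowest and 10 highest ratios among those with at least 100 normalized counts in 1 of the 2 libraries, the 10 most abundant at 5 μg/L, the 5 largest gains and 5 largest losses in share, and members of the lists described. Others, such as miR-2184 and miR-155, serve as examples of a list, family, cluster or range. The comparison and lists were chosen with earlier results of these data known. The alternatives were other pseudocounts, filters, scalings, thresholds and control libraries. The calculation of intervals and ratios was checked on simulated data with counting error alone, which cannot speak to variation between libraries. Intervals came from scipy 1.17.1, tables from pandas 2.3.3 with numpy 2.4.6, and plots from matplotlib 3.10.9, all run in Python 3.11.15.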

Additional observations from a re-analysis of the deposited data

How the results depend on the processing

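With 1 library for each condition, no replicate could be left out and no spread between larvae was measured. No paired analysis was possible because each condition had 1 library. The 7 miRNAs lower beyond 2-fold numbered 7 with pseudocounts of 0.1 and 10 and with a minimum mean of 100, 8 with median-of-ratios scaling of the 2 libraries alone, 9 with no filter and 11 with total scaling. With the mean of both controls as reference the count was 2, and with the blank control 0, where the levels of the vehicle library no longer enter. A threshold of 1.5-fold gave 30 lower and 6 higher, in place of 7 and 0. Total scaling turned miR-192 to -0.032 and miR-183 to -0.017 on the log2 scale, by the common shift. Among the 34 miRNAs that the naming rule picked by value or abundance, the log2 ratio against the blank control changed sign for miR-190a (0.039), miR-143 (0.064), miR-19b-3p (-0.29), miR-145 (-0.19), miR-214 (-0.14), miR-19d (-0.091), miR-19c (-0.069) and miR-181b (-0.0084), and against the mean of both controls for miR-143 (0.0031). Others changed sign too, such as let-7d (0.40 against the blank control, -0.33 against the vehicle), miR-206 (-0.41 and 0.10) and miR-124 (0.25 and -0.47). The cause was not tested. Of the 36 list medians under 8 alternatives, 280 values stayed within 1 SD of the list's members and 8 moved beyond it. Of these 8, 6 came with the blank control and none with another pseudocount or filter. The SD is the spread within a list and is often wide, so staying within it does not show a stable median. A median could even change sign within it, as for smooth muscle (0.32 against the vehicle, -0.061 against the blank control). Entries with a mean under 100 normalized counts had a median interval half-width of 0.87 on the log2 scale, wider than a 1.5-fold difference.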

Other observations

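Of the miRNAs numbered 722 or above, many of which are known mainly from fish, 33 of 42 listed entries passed the minimum level. Their median log2 ratio of 5 μg/L over the vehicle was 0.05, which total scaling turned to -0.07, with 2 lower and 2 higher beyond 1.5-fold, beside 12.8% lower and 2.56% higher among all 234 miRNAs. The 3 entries of miR-430, which clears maternal messages in the early zebrafish embryo, summed to 510 normalized counts at 5 μg/L, 485 in the vehicle and 503 in the blank control. miR-128 and miR-133b-5p had the highest log2 ratios of 5 μg/L over the blank control, 0.92 and 0.90, and miR-133b-5p was a low entry, with 43.0 normalized counts at 5 μg/L against 22.5 for the blank control.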
